A study of Mus musculus with 47 samples.

Results

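The 38 genes described here carry out DNA replication and cell division, and were chosen by their symbols. All 38 were found among the 24062 genes of the count table, and all 38 passed the filter on low counts. They were grouped by role. The first 4 groups, 18 genes, act before and during DNA synthesis: the MCM2-7 helicase (Mcm2, Mcm3, Mcm4, Mcm5, Mcm6, Mcm7), licensing factors and the replication clamp (Cdc6, Cdt1, Gmnn, Pcna), nucleotide supply (Rrm1, Rrm2, Tyms), and control of S phase entry and progress (E2f1, Ccne1, Ccne2, Ccna2, Chek1). The other 20 act in mitosis: mitotic entry (Cdk1, Ccnb1, Ccnb2, Foxm1, Plk1, Aurka), the chromosomal passenger complex (Aurkb, Birc5, Cdca8), the spindle checkpoint and centromere (Bub1, Bub1b, Cdc20, Cenpa, Cenpe), and spindle and chromosome structure (Kif11, Kif20a, Tpx2, Nusap1, Top2a, Mki67).

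In a dividing cell, Cdt1 and Cdc6 load the ring of MCM2-7 proteins onto replication origins, and geminin (Gmnn) blocks a second round of loading. E2F factors such as E2f1, held in check by the retinoblastoma protein until cyclin-dependent kinases act, drive transcription of cyclin E and of the replication genes. The mitotic genes are transcribed later, in G2, largely through the MuvB, B-Myb and Foxm1 complex, which reads the promoter word called CHR (cell cycle genes homology region). In the intestine, division is confined mainly to stem and transit-amplifying cells of the crypts, and cells leave the cycle as they move onto the villus. Loss of Apc, a negative regulator of Wnt signalling, keeps cells in a crypt-like dividing state and starts adenomas.

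The libraries came from mouse intestine. Mice with the Apc Min allele, an adenoma-inducing Apc allele (labelled APC min/+), gave adenoma and normal mucosa, called Min mucosa below, and mice with wild-type Apc gave wild-type mucosa. The 4 genetic backgrounds with all of these tissues were B6 (C57BL/6), C5 (C57BL/6 with chromosome 5 from PWD/Ph), C5F1 (C57BL/6 crossed with C5) and B6xPWD (C57BL/6 crossed with PWD/Ph). PWD (PWD/Ph) gave wild-type mucosa only. Each of these 13 tissue groups had 3 libraries. Organoids, which are epithelial cultures grown from tissue, carried the Apc Min allele in every library and came from B6 and C5, each as untreated control and after 5-aza-cytidine (AZA), with 2 libraries per group. AZA is a cytidine analogue that is incorporated into RNA and DNA and inhibits DNA methyltransferases. The tissue from which each organoid was grown, the AZA dose and its duration are not given in the sources used here. The labels give an age of 15 to 19 weeks for all groups, and do not say whether the libraries of a group, numbered by replicate below, came from different animals or cultures. The p-values therefore cover the spread among libraries, which may be technical. Each tissue piece holds several cell types, and fewer dividing cells cannot be told apart from less RNA per cell.

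Tissue libraries held 2726505 to 20070696 counts and organoid libraries 4389898 to 8373764, of which 1488 to 36195 and 12753 to 59994 fell on the 38 genes. The ribosomal transcript Rn45s took 16.4% to 72.7% of the counts of a tissue library and at most 1.61% of those of an organoid. Without Rn45s, the 38 genes took 0.256% to 0.337% of the counts in B6 adenoma and 0.159% to 0.209% in B6 Min mucosa. In the control organoids they took 0.592% to 0.722%, and in the AZA organoids 0.210% to 0.328%. 3 libraries stood apart: C5F1 Min mucosa library 1 by its Rn45s share (72.7%), and B6xPWD adenoma library 1 and B6 wild-type mucosa library 1 by B cell markers (summed level 298 and 115 CPM, the count scaled to library size, against a tissue median of 7.12 in adenoma and 11.8 in wild-type mucosa). Each count of called members in the tissue comparisons was also computed without these 3. B6 wild-type mucosa library 3, with 60.98% Rn45s and the fewest counts on the 38 genes (1488), was left out only singly. The 6 epithelial markers were detected in every tissue and organoid group, and control organoids had no counts for the B cell markers Cd79a and Cd79b, the T cell markers Cd8a and Cd4 or the muscle marker Des.

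**Figure D1:**
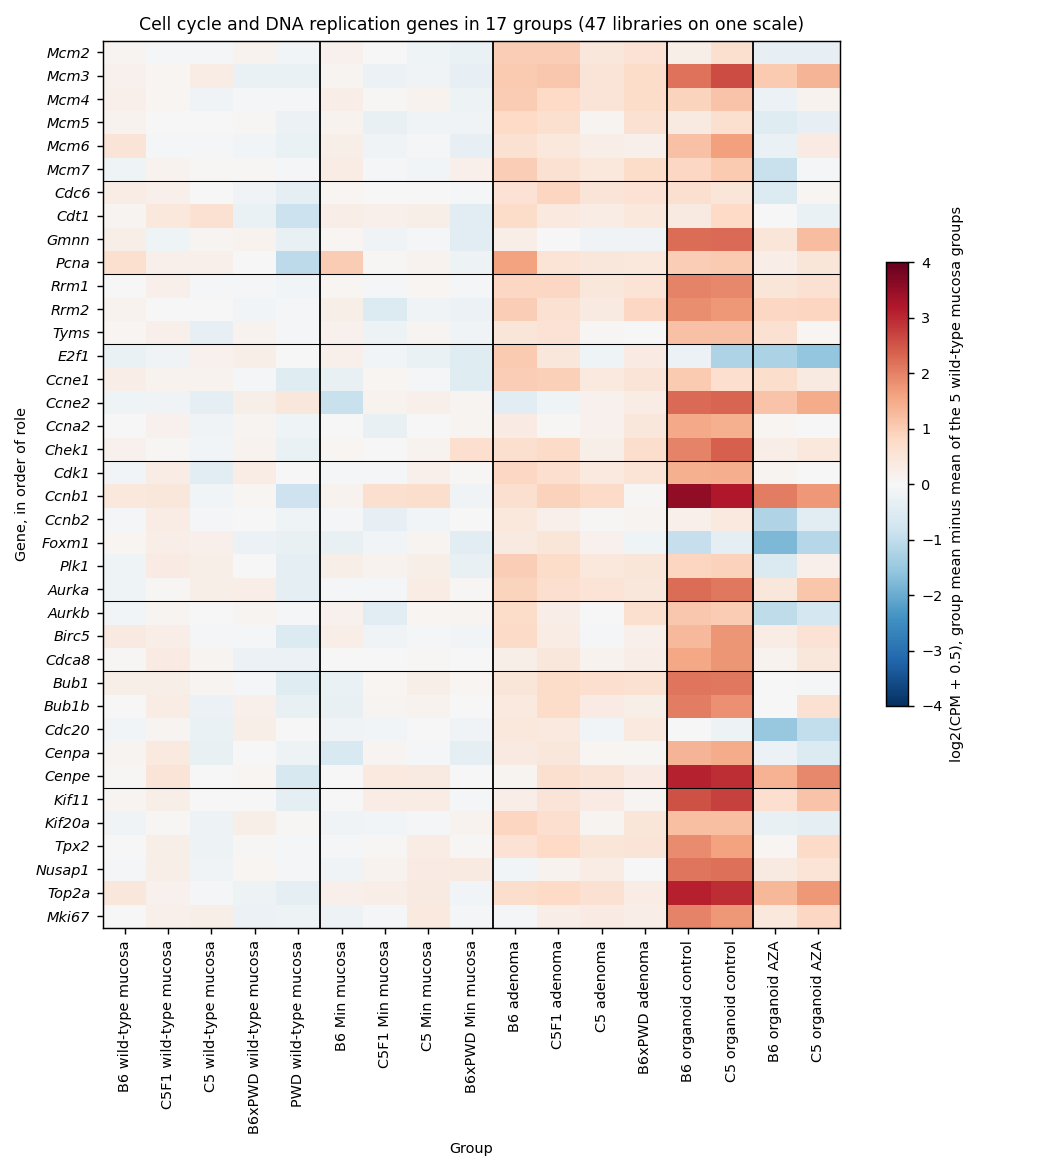
Levels of the 38 genes in the 17 groups. Rows are genes in order of role, columns are groups, and colour gives the group mean of log2(CPM + 0.5) minus the mean of the 5 wild-type mucosa groups. The control organoid columns are the strongest for most genes, the adenoma columns stand above the Min mucosa columns for most genes, with Nusap1 in C5F1, C5 and B6xPWD and Ccne2 in C5F1 and C5 among the exceptions, and the AZA columns stand below their controls.

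The start regions of these genes are shown first, because the role groups differ in the short words their promoters carry. RefSeq start sites (build GRCm38.p6) were matched by symbol for 30 of the 38 genes, 31 windows in all, each reaching from 250 bases before to 50 bases after the start. 3 words were searched on both strands: the CHR word TTTGAA, the word CCAAT, which binds NF-Y, and the E2F words TTTCCCGC, TTTGGCGC, TTTGCCGC and TTTCGCGC. The words do not contain one another, but matches on opposite strands can overlap. The 140 bases before the start of 3 mitotic and 3 replication genes follow, 5′ to 3′ on the strand of the gene, with the words found in capitals (ATTGG is CCAAT on the other strand, and TTCAAA is the CHR word there).
Cdk1 (chr10:69352913-69353052, minus strand): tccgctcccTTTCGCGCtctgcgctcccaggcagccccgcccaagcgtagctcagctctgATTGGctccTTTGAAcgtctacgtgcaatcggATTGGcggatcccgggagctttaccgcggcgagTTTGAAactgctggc
Cdc20 (chr4:118437344-118437483, minus strand): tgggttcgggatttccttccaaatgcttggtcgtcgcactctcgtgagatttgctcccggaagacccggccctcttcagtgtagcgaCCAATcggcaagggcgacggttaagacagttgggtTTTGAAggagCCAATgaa
Top2a (chr11:99024190-99024329, minus strand): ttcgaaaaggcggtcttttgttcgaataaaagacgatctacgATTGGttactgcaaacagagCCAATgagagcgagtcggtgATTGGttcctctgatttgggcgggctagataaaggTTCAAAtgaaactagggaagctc
Mcm6 (chr1:128359706-128359845, minus strand): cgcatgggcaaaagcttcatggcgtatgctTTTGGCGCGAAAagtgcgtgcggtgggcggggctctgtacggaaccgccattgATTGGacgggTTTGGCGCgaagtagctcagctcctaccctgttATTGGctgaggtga
Mcm3 (chr1:20820313-20820452, minus strand): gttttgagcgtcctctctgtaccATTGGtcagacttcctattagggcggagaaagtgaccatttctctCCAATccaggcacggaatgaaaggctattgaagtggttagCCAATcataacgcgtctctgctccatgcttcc
Pcna (chr2:132253181-132253320, minus strand): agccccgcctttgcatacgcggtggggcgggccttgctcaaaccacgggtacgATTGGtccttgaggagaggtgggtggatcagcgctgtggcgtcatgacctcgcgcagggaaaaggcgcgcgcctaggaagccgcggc

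Cdk1, Cdc20 and Top2a each carried the CHR word within the last 30 bases before the start, with a CCAAT word near it. Of the mitotic genes not shown, Kif11 also had it there, and Aurka, Bub1b, Cdca8, Cenpa and Plk1 had it only after the start. Ccnb2 and Mki67 had it farther upstream, and Ccnb2 also just after the start. Mcm6 carried 3 E2F matches and no CHR word, and 2 of its matches overlap within TTTGGCGCGAAA. Mcm3 had 3 CCAAT matches in the stretch shown and its 2 E2F matches after the start. Among the 16 windows of mitotic genes, 11 (68.8%) held the CHR word, 14 (87.5%) a CCAAT word, 1 (6.25%) an E2F word and 11 both CHR and CCAAT. Among the 15 windows of replication, nucleotide and S phase genes, 1 (6.67%) held the CHR word, 9 (60%) a CCAAT word and 6 (40%) an E2F word. Of all 32817 promoter windows of the same length, 17.9% held the CHR word, 37.4% a CCAAT word, 2.26% an E2F word and 6.94% both CHR and CCAAT. A match describes the letters of a window and is not a measured binding site. Of the 31 windows, 22 have their first 30 bases inside a GENCODE transcript, and among those shown this holds for all but Mcm6.

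Levels per kilobase of exon spread widely within each tissue. The length used is that of all annotated exons of a gene together, from 1465 bases (Gmnn) to 11012 (Rrm1). It can exceed the length of the RNA made, so the order of genes is approximate. In adenoma the highest were Mki67 (the proliferation antigen Ki-67 that coats mitotic chromosomes) at 20.7 ± 3.78 CPM per kb and Pcna (the sliding clamp of DNA polymerases) at 20.2 ± 8.38 (SD, n = 12), which overlap within their spread. That SD spans the 4 backgrounds, and all B6 adenoma libraries of Pcna stood above those of the others, as given below. Ccna2 (cyclin A2), Cdc20 (activator of the anaphase-promoting complex) and Top2a (topoisomerase II alpha) followed at 15.4, 15.3 and 15.0 CPM per kb, and these 3 do not differ beyond their spread. Ccnb1 (cyclin B1) was lowest, at 0.896 ± 0.300 CPM per kb, with Ccne2 (cyclin E2) at 1.01 and Chek1 (the replication checkpoint kinase) at 1.06, again within their spread. The order differed in control organoids, where Top2a led at 154 ± 15.1 CPM per kb (SD, n = 4), followed by Mki67 at 127, Ccna2 at 68.0 and Gmnn at 60.4. E2f1 and Foxm1 were the lowest there, at 1.91 and 2.70 CPM per kb. Ccnb1 has 3 processed pseudogenes with 97.3% to 99.2% identity over 1287 to 1294 bases that are not in the count table, and Pcna has one (99.2% over 781 bases). How reads shared with such copies were counted is not given, so the levels of Ccnb1 and Pcna are uncertain. Exons of Kif20a, Ccne2 and Ccna2 overlap a gene on the opposite strand over 29.3%, 17.4% and 12.5% of their exon length, and their reads cannot be told apart without strand.

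Adenoma was compared with Min mucosa of the same background to ask how the tumours differ from normal mucosa with the same Apc allele. The labels do not say whether adenoma and Min mucosa libraries came from the same mice. Averaged over the 4 backgrounds, 29 of the 38 genes rose in adenoma, none fell, and 9 did not pass the test. Over all 13657 genes tested, 23.7% rose and 21.5% fell. The members' median log2 change was 0.44, against 0.01 for all genes, and 37 of 38 estimates were above 0. All 6 MCM genes rose (median log2 change 0.67), as did all 3 nucleotide supply genes (0.67), while spindle and chromosome structure had the lowest median, 0.28, with 3 of 6 rising. Without the 3 libraries that stood apart, 31 rose.

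**Figure D2:**
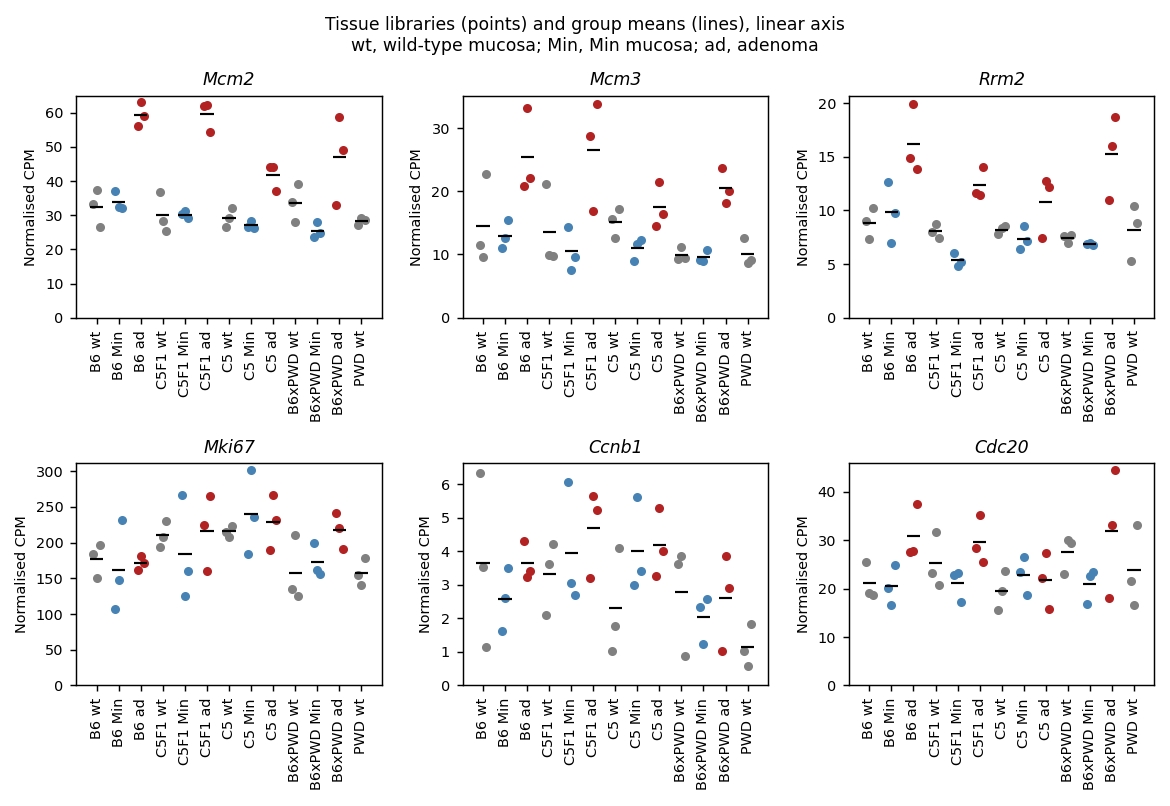
CPM of 6 members in each of the 39 tissue libraries, by background and tissue, with 1 point per library and a bar at each group mean. Adenoma points of Mcm2 and Mcm3 lie above the Min mucosa points in every background, whereas those of Mki67 and Ccnb1 overlap in every background.

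Mcm2, a subunit of the replicative helicase, had the smallest p of the members. Mcm2 stood at 33.3, 37.2 and 26.6 CPM in B6 wild-type mucosa, 36.7, 28.3 and 25.2 in C5F1, 26.4, 29.1 and 32.0 in C5, 34.0, 27.9 and 39.1 in B6xPWD and 27.1, 29.1 and 28.5 in PWD. Min mucosa held Mcm2 at 37.2, 32.4 and 32.1 CPM from B6, 30.4, 31.2 and 29.1 from C5F1, 26.6, 28.2 and 26.2 from C5 and 23.6, 28.0 and 24.8 from B6xPWD. Adenoma libraries gave Mcm2 56.1, 63.0 and 59.1 CPM from B6, 61.9, 62.4 and 54.5 from C5F1, 44.0, 44.2 and 37.1 from C5 and 32.9, 58.9 and 49.2 from B6xPWD. Every adenoma library stood above the Min mucosa libraries of its own background, and Min and wild-type mucosa overlapped. The mean of Mcm2 was 51.9 ± 10.3 CPM (SD, n = 12) in adenoma and 29.1 ± 3.78 CPM (SD, n = 12) in Min mucosa, a log2 change of 0.82 ± 0.08 (SE; edgeR adjusted p = 9.31e-10).

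Mcm3, of the same ring, had the largest change. Its 12 adenoma libraries ran from 14.6 to 33.8 CPM (median 21.1) and its 12 Min mucosa libraries from 7.54 to 15.4 (median 10.9). Within each background the groups did not overlap, and the log2 change was 1.02 ± 0.14 (SE; edgeR adjusted p = 6.58e-07). Mcm4 rose by 0.70 ± 0.11 (SE; edgeR adjusted p = 5.35e-06) on the log2 scale. Mcm5, Mcm6 and Mcm7 rose by 0.64, 0.46 and 0.62. The 6 subunits form 1 ring. Their estimates ran from 0.46 (Mcm6) to 1.02 (Mcm3), each with an SE of 0.08 to 0.14, and differences between the genes were not tested.

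Rrm2, the small subunit of ribonucleotide reductase, which makes deoxynucleotides and is produced in S phase, also rose. Rrm2 stood at 9.04, 7.35 and 10.2 CPM in B6 wild-type mucosa, 8.02, 8.69 and 7.39 in C5F1, 7.77, 8.36 and 8.51 in C5, 7.58, 6.93 and 7.68 in B6xPWD and 5.33, 10.4 and 8.81 in PWD. Min mucosa held Rrm2 at 12.7, 6.97 and 9.79 CPM from B6, 6.07, 4.81 and 5.17 from C5F1, 6.40, 8.54 and 7.19 from C5 and 6.87, 6.95 and 6.78 from B6xPWD. Adenoma libraries gave Rrm2 14.9, 19.9 and 13.9 CPM from B6, 11.6, 11.4 and 14.0 from C5F1, 7.46, 12.7 and 12.2 from C5 and 11.0, 16.02 and 18.7 from B6xPWD. In B6, C5F1 and B6xPWD all adenoma libraries stood above all Min mucosa libraries, and in C5 they overlapped. The log2 change over the 4 backgrounds was 0.88 ± 0.11 (SE; edgeR adjusted p = 1.56e-07). Rrm1, its large subunit, rose by 0.67 and Tyms (thymidylate synthase) by 0.27.

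Of the genes that control S phase entry, Ccne1 (cyclin E1, partner of Cdk2 at the G1/S boundary) rose by 0.94 ± 0.18 (SE; edgeR adjusted p = 7.89e-05) on the log2 scale, from 2.19 to 10.6 CPM in Min mucosa to 4.00 to 11.0 in adenoma. Within B6 and within B6xPWD the 2 groups did not overlap. C5F1 Min mucosa library 1, one of the libraries that stood apart, had 10.6 CPM, above all 3 C5F1 adenoma libraries, and C5 adenoma library 3, at 4.00, was below 2 C5 Min mucosa libraries. E2f1 rose by 0.57 and Chek1 by 0.36. Cyclin A2 gave 0.27 (adjusted p = 0.0768), and cyclin E2 0.07 (adjusted p = 0.769), which did not pass the test. Among licensing genes, Cdc6, Pcna and Cdt1 rose by 0.66, 0.49 and 0.43, while the licensing inhibitor Gmnn gave 0.13 (adjusted p = 0.297).

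Of the 20 mitotic genes 14 rose. The kinases Aurka, Plk1, Bub1 and Cdk1 rose by 0.59, 0.59, 0.58 and 0.58 on the log2 scale. Kif20a (a cytokinesis kinesin) rose by 0.57, Tpx2 (activator of Aurora A) by 0.51, Cenpa (the centromeric histone H3) by 0.50, Top2a by 0.41, Bub1b (a spindle checkpoint protein) by 0.41 and Cdc20 by 0.40. Aurkb and Birc5 (survivin) of the passenger complex rose by 0.41 and 0.32, Foxm1 (a transcription factor of mitotic genes) by 0.39 and Ccnb2 (cyclin B2) by 0.32. The third passenger gene, Cdca8 (borealin), gave 0.27 (adjusted p = 0.0666). Cenpe, Kif11 and Nusap1, which act on spindle microtubules, gave 0.18 (adjusted p = 0.200), 0.15 (adjusted p = 0.209) and -0.10 (adjusted p = 0.520).

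Mki67, the gene of the most used proliferation marker, did not pass the test in adenoma. Mki67 stood at 184, 149.9 and 197 CPM in B6 wild-type mucosa, 194, 208 and 229.8 in C5F1, 216, 208 and 223 in C5, 135, 210.2 and 125 in B6xPWD and 154, 141 and 179 in PWD. Min mucosa held Mki67 at 107, 147 and 231 CPM from B6, 266, 125 and 159.9 from C5F1, 184, 301 and 236 from C5 and 199, 161 and 156 from B6xPWD. Adenoma libraries gave Mki67 161, 182 and 171 CPM from B6, 225, 160.4 and 265 from C5F1, 189.5, 267 and 232 from C5 and 241, 219.9 and 191 from B6xPWD. The adenoma and Min mucosa libraries overlapped in all 4 backgrounds. The mean was 209 ± 38.01 CPM (SD, n = 12) in adenoma and 189.6 ± 58.8 CPM (SD, n = 12) in Min mucosa, a log2 change of 0.15 ± 0.12 (SE; edgeR adjusted p = 0.342).

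Ccnb1, the activating cyclin of Cdk1, was low in every tissue. Ccnb1 stood at 6.33, 3.52 and 1.13 CPM in B6 wild-type mucosa, 2.11, 3.63 and 4.22 in C5F1, 1.04, 1.77 and 4.11 in C5, 3.63, 3.85 and 0.878 in B6xPWD and 1.01, 0.577 and 1.82 in PWD. Min mucosa held Ccnb1 at 1.63, 2.60 and 3.50 CPM from B6, 6.07, 3.06 and 2.71 from C5F1, 3.002, 5.61 and 3.40 from C5 and 2.33, 1.25 and 2.57 from B6xPWD. Adenoma libraries gave Ccnb1 4.31, 3.23 and 3.41 CPM from B6, 3.20, 5.66 and 5.23 from C5F1, 3.27, 5.28 and 4.00 from C5 and 1.03, 3.86 and 2.89 from B6xPWD. No tissue was separated from another, and the log2 change in adenoma was 0.32 ± 0.22 (SE; edgeR adjusted p = 0.248).

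**Figure D3:**
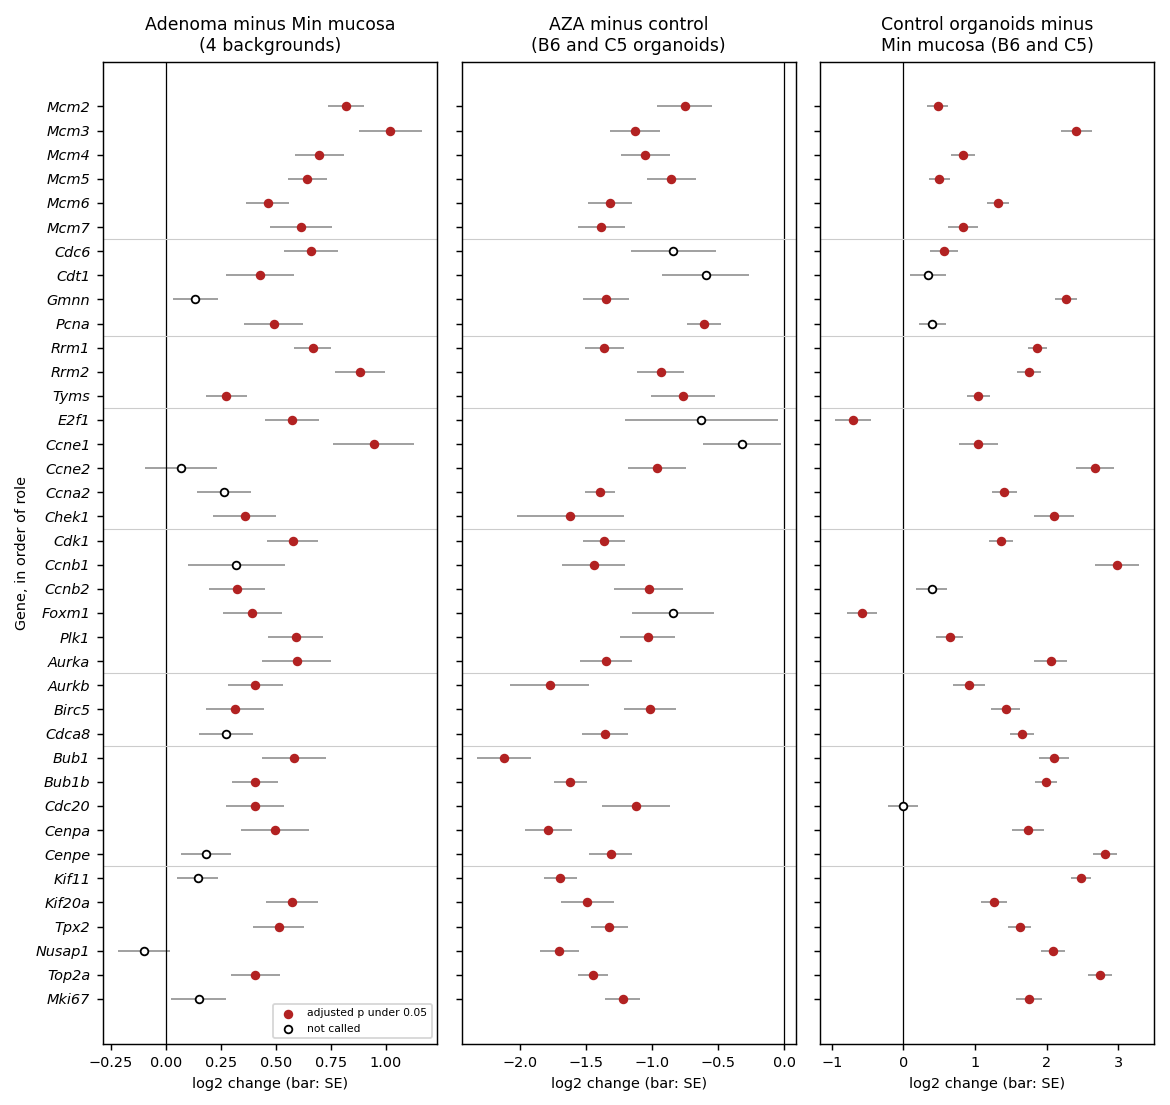
Log2 change ± SE of each of the 38 genes, in order of role, in 3 comparisons: adenoma minus Min mucosa, AZA minus control organoids, and control organoids minus Min mucosa. Filled points passed adjusted p = 0.05. In the first panel the 6 MCM genes lie between 0.46 and 1.02, and in the second all 38 points lie left of 0.

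Within single backgrounds the counts were smaller. In B6, 25 members rose when the replicate number was fitted as a block, a fit whose share of all genes is not given here. Without the block 14 rose and none fell (all genes: 13% rose, 1781 of the 3647 called). They were led by Ccne1 (1.24 ± 0.35, adjusted p = 0.00883), Cenpa (0.95 ± 0.31, adjusted p = 0.0217), Mcm3 (0.94 ± 0.28, adjusted p = 0.0116), Kif20a (0.94 ± 0.24, adjusted p = 0.00336) and Aurka (0.93 ± 0.31, adjusted p = 0.0222) on the log2 scale. The others were Cdk1, E2f1, Mcm2, Mcm4, Plk1, Rrm1, Rrm2, Bub1b and Mcm5. The count fell to 8 without B6 adenoma library 2 and to 9 without B6 Min mucosa library 2. Ccne1 lost its call without B6 Min mucosa library 2 (adjusted p = 0.0745). Cenpa lost its call without B6 adenoma library 3 or B6 Min mucosa library 1 or 3 (adjusted p = 0.0640 to 0.0691). Mcm3 lost its call without B6 adenoma library 2 or B6 Min mucosa library 1 (adjusted p = 0.0556 to 0.0903). Aurka lost its call without B6 adenoma library 2 or B6 Min mucosa library 1 or 2 (adjusted p = 0.0691 to 0.0963).

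In C5F1, 13 rose (all genes: 10.9%), and 22 with the replicate block, for which the share of all genes is not given here. The largest changes were those of Mcm3 (1.41 ± 0.30, adjusted p = 8.79e-04), Rrm2 (1.21 ± 0.24, adjusted p = 4.09e-04), Mcm2 (0.97 ± 0.17, adjusted p = 6.61e-05), Cdc6 (0.95 ± 0.25, adjusted p = 0.00679) and Mcm5 (0.94 ± 0.18, adjusted p = 2.51e-04), all of them replication genes. Rrm1, Kif20a, Tpx2, Cdk1, Mcm4, Tyms, Bub1b and Mcm6 also rose. Leaving out C5F1 Min mucosa library 2 or library 3 left 7, and leaving out C5F1 adenoma library 3 left 8. Cdc6 lost its call without C5F1 Min mucosa library 2 (adjusted p = 0.0869). Without the 3 libraries that stood apart, 16 rose.

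In B6xPWD, 9 rose (all genes: 9.43%): Rrm2 (1.10 ± 0.23, adjusted p = 0.00109), Mcm3 (1.09 ± 0.29, adjusted p = 0.00922), Ccne1 (1.07 ± 0.37, adjusted p = 0.0471), Mcm4 (0.90 ± 0.22, adjusted p = 0.00534), Mcm2 (0.88 ± 0.16, adjusted p = 3.80e-04), and then E2f1, Plk1, Mcm5 and Rrm1. Leaving out B6xPWD adenoma library 3 left 5, and a fit of these 2 groups alone left 3. Ccne1 lost its call without B6xPWD adenoma library 2 or 3 or any 1 of the 3 B6xPWD Min mucosa libraries (adjusted p = 0.0717 to 0.249), and with no low-count filter (0.0587), in a fit of only the groups compared (0.107) and with the replicate block (0.0567). Mcm2 was not called in a fit of only the groups compared (adjusted p = 0.0535).

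In C5, Mcm2 alone rose (0.62 ± 0.16, adjusted p = 0.0247), where 2.59% of all genes rose, and 29 of 38 estimates were above 0 with a median of 0.14. Mcm2 lost its call without C5 adenoma library 1 or 2 or any 1 of the 3 C5 Min mucosa libraries (adjusted p = 0.0678 to 0.165). The members' share of counts without Rn45s was 0.193% to 0.245% in C5 adenoma and 0.144% to 0.231% in C5 Min mucosa. The difference between backgrounds in the size of the adenoma change was tested itself. No member differed between C5 and B6 (3 at unadjusted p under 0.05, smallest adjusted p 0.398 for Kif20a, then 0.472 for Cdk1), where 0.11% of all genes were called. Of the 38 estimates 37 were smaller in C5, with a median of -0.38 against 0.01 for all genes. The members share these libraries, and their common direction was not tested. None differed between C5F1 and B6 (1 at unadjusted p under 0.05, Ccne2, adjusted p = 1, as for Tyms; 0% of all genes called) or between B6xPWD and B6 (0 at unadjusted p under 0.05, smallest adjusted p 0.576 for Kif20a, then 0.653 for Bub1b; 0.63%). DESeq2 also called no member in these 3 tests, nor did the fit with the replicate block. Over all genes the calls rose with the block, from 15 to 403 in C5, from 86 to 518 in B6xPWD and from 0 to 41 in C5F1.

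Markers of several differentiated cell types moved in the other direction. The summed level of 12 enterocyte markers was 2436 to 11490 CPM in the 12 adenoma libraries and 8869 to 24450 in the 12 Min mucosa libraries, and 9 of the 12 fell. Of 6 Paneth cell markers 5 fell and 1 rose (sums of 925 to 5271 against 3329 to 10590 CPM), and all 6 smooth muscle markers fell (39.6 to 945 against 113 to 2255). Enteroendocrine markers summed to 20.7 to 87.5 against 90.9 to 142.5 CPM, with 5 of 6 falling. Goblet cell markers overlapped, at 3492 to 9475 (median 6672) against 7062 to 11030 CPM (median 8282). Crypt stem cell markers also overlapped, at 597 to 805 (median 758) against 549 to 1089 CPM (median 803). Germinal centre B cell markers, of which 1 of 3 tested rose, summed to 6.88 to 56.5 against 2.67 to 7.69, where the highest was B6xPWD adenoma library 1, which stood apart, and the other adenoma libraries reached at most 12.15. On the separate scale of the organoid libraries, this list also summed to 6.05 to 19.8 CPM in control organoids, which had no Cd79a or Cd79b counts. It is therefore not specific to B cells here. The B cell markers themselves had a median sum of 7.12 in adenoma and 12.9 in Min mucosa. No defining marker of these lists was at 0 across either tissue, and their part in the results above was not tested.

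Of 123 other pathway genes tested (125 were listed and 124 are in the table), 64 rose and 9 fell in adenoma, with a median log2 change of 0.34. Of 14 origin and helicase loading genes 9 rose and none fell, led by Orc6 (0.73), Gins2 (0.72) and Orc1 (0.68). Of 7 chromatin copying genes 6 rose, with the chromatin assembly subunit Chaf1b at 0.79 and the maintenance methylation factor Uhrf1 at 0.56. Of 18 polymerase and fork genes 7 rose, led by Pole (0.67), and of 9 replication stress and repair genes 6 rose, led by Fancd2 (0.76). Of 11 kinetochore genes 3 rose (Mad2l1 0.64, Incenp 0.54, Bub3 0.36), and of 16 spindle, condensin and cytokinesis genes 11 rose, led by Prc1 (0.66). The upstream genes split. Myc and Cdk4 rose (0.79 and 0.78), as did Cks1b (0.99) and Mybl2, the gene of B-Myb (0.91), while Rb1, the retinoblastoma gene, fell by 0.78.

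Of 6 CDK inhibitors tested, 4 fell and 1 rose. Cdkn1a encodes p21, which blocks Cdk2 and binds PCNA. Cdkn1a stood at 141, 149 and 121 CPM in B6 wild-type mucosa, 188, 122 and 104 in C5F1, 144, 129 and 159.7 in C5, 130.5, 164 and 139 in B6xPWD and 104, 94.1 and 156 in PWD. Min mucosa held Cdkn1a at 206, 116 and 104 CPM from B6, 144, 126 and 102 from C5F1, 162, 111 and 111 from C5 and 128, 119 and 147 from B6xPWD. Adenoma libraries gave Cdkn1a 74.2, 56.2 and 59.7 CPM from B6, 87.2, 74.9 and 59.0 from C5F1, 143, 78.7 and 116 from C5 and 82.5, 114 and 112 from B6xPWD. In B6, C5F1 and B6xPWD each adenoma library was below each Min mucosa library, and in C5 they overlapped. Cdkn1a fell by 0.61 on the log2 scale (SE 0.12, edgeR adjusted p = 1.56e-04). Cdkn2b fell by 0.74 and Cdkn2c by 0.51, and the imprinted inhibitor Cdkn1c rose by 1.60 ± 0.18 (SE; edgeR adjusted p = 9.45e-09).

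Min mucosa did not differ from wild-type mucosa in any member. Of the 38 estimates 30 were below 0, with a median of -0.08, and 1 had an unadjusted p under 0.05. Gmnn and Mcm5 had the smallest p, with log2 differences of -0.24 ± 0.10 (adjusted p = 0.614) and -0.18 ± 0.09 (adjusted p = 0.684), each ± SE. Of all genes 0.00732% were called, which is 1 gene. DESeq2 called no member either.

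Each other background was then compared with B6, averaged over wild-type mucosa, Min mucosa and adenoma, to ask which members differ with the genome rather than with the tissue. These comparisons, and those within adenoma, share the B6 libraries. In C5F1, 3 members were lower and 1 higher (all genes: 5.62% lower, 5.91% higher). In C5, 6 were lower and 2 higher (8.35% and 10.3%), in B6xPWD 7 lower and 1 higher (16.1% and 18.7%), and in PWD wild-type mucosa 7 lower and none higher (8.79% lower). Of the 2560 genes called in PWD, 1200 were lower. The counts of lower members in C5F1 and B6xPWD lie near the share of all genes. In all 4 comparisons the number of calls moved when single libraries were left out, as given below. The members' median differences in C5F1, C5, B6xPWD and PWD were -0.02, -0.13, -0.12 and -0.31 on the log2 scale. Pcna and Mcm6 were lower in all 4.

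Pcna had the smallest p in each of them. Pcna stood at 61.4, 50.02 and 23.8 CPM in B6 wild-type mucosa, 32.9, 37.4 and 23.6 in C5F1, 21.8, 32.6 and 42.4 in C5, 24.1, 20.6 and 38.4 in B6xPWD and 12.7, 13.6 and 12.4 in PWD. Min mucosa held Pcna at 79.0, 51.8 and 38.8 CPM from B6, 29.6, 26.4 and 26.7 from C5F1, 26.8, 26.9 and 36.2 from C5 and 21.4, 24.8 and 24.6 from B6xPWD. Adenoma libraries gave Pcna 78.6, 85.2 and 77.8 CPM from B6, 48.8, 40.6 and 29.98 from C5F1, 34.9, 39.1 and 37.5 from C5 and 29.6, 41.1 and 37.9 from B6xPWD. All 3 PWD libraries were the lowest of the 39, and all 3 B6 adenoma libraries were above every adenoma library of the other backgrounds. Within B6 the level ranged widely, and the lowest B6 wild-type library overlapped those of C5F1, C5 and B6xPWD.

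Pcna differed from B6 by -0.88 ± 0.15 (adjusted p = 5.83e-04) in C5F1, -0.83 ± 0.15 (adjusted p = 3.58e-04) in C5 and -1.04 ± 0.15 (adjusted p = 4.16e-06) in B6xPWD (log2 difference ± SE), and by -1.81 ± 0.28 (adjusted p = 1.94e-05) in PWD wild-type mucosa. Within adenoma it was lower in C5 (-1.11 ± 0.26, adjusted p = 0.00339) and B6xPWD (-1.15 ± 0.26, adjusted p = 0.00286). In C5F1 adenoma the estimate was -1.02 ± 0.26 (adjusted p = 0.0651), which passed the threshold with DESeq2 (adjusted p = 0.0166), with only the 2 groups fitted (0.00928) and without the 3 libraries that stood apart (0.0464). Pcna lies on chromosome 2 (132249162 to 132253314, mm10), outside the chromosome 5 that C5 carries from PWD/Ph. The control organoids of the 2 backgrounds did not show the gap: Pcna was at 100.4 and 106 CPM in B6 and 107 and 107 in C5, a log2 difference of 0.05 ± 0.18 (SE; edgeR adjusted p = 0.997).

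**Figure D4:**
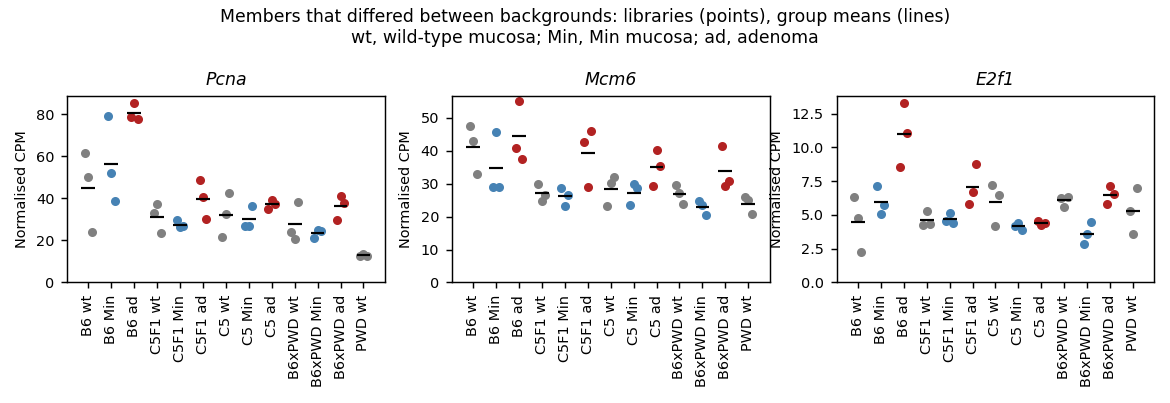
CPM of Pcna, Mcm6 and E2f1 in each of the 39 tissue libraries, by background and tissue, with 1 point per library and a bar at each group mean. The B6 adenoma points of Pcna (77.8 to 85.2) stand above all adenoma points of the other backgrounds, and the 3 PWD points (12.4 to 13.6) are the lowest.

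Mcm6 followed Pcna in direction. Mcm6 stood at 47.5, 43.0 and 32.9 CPM in B6 wild-type mucosa, 29.98, 24.9 and 26.5 in C5F1, 23.3, 30.1 and 32.1 in C5, 29.7, 27.2 and 23.7 in B6xPWD and 25.9, 25.1 and 20.9 in PWD. Min mucosa held Mcm6 at 29.1, 45.8 and 29.0 CPM from B6, 28.9, 23.2 and 26.5 from C5F1, 23.4, 29.8 and 28.6 from C5 and 24.9, 23.5 and 20.6 from B6xPWD. Adenoma libraries gave Mcm6 40.8, 55.1 and 37.5 CPM from B6, 42.7, 29.0 and 46.1 from C5F1, 29.3, 40.3 and 35.4 from C5 and 41.6, 29.4 and 30.8 from B6xPWD. In Min mucosa the 2 lower B6 libraries lay within the range of C5, and in wild-type mucosa every B6 library was above the C5F1, C5, B6xPWD and PWD libraries. The differences from B6 were -0.41 ± 0.11 (adjusted p = 0.0192) in C5F1, -0.40 ± 0.11 (adjusted p = 0.0144) in C5, -0.53 ± 0.11 (adjusted p = 5.75e-04) in B6xPWD and -0.78 ± 0.20 (adjusted p = 0.00595) in PWD (log2 ± SE). Mcm6 was not called in C5F1 without B6 adenoma library 2 or B6 Min mucosa library 2 (adjusted p = 0.0567 to 0.0630).

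E2f1, the S phase transcription factor, was lower in C5 and in B6xPWD averaged over the 3 tissues, but not in wild-type mucosa. E2f1 stood at 6.33, 4.79 and 2.27 CPM in B6 wild-type mucosa, 4.22, 5.32 and 4.33 in C5F1, 7.25, 4.18 and 6.46 in C5, 6.26, 5.59 and 6.37 in B6xPWD and 5.33, 3.60 and 6.98 in PWD. Min mucosa held E2f1 at 7.16, 5.06 and 5.77 CPM from B6, 4.55, 5.14 and 4.43 from C5F1, 4.20, 4.39 and 3.91 from C5 and 2.82, 3.56 and 4.44 from B6xPWD. Adenoma libraries gave E2f1 8.59, 13.3 and 11.1 CPM from B6, 5.81, 6.70 and 8.80 from C5F1, 4.55, 4.29 and 4.42 from C5 and 5.82, 7.14 and 6.58 from B6xPWD. The 3 C5 adenoma libraries lay together and below every adenoma library of the other backgrounds, while the lowest wild-type library was a B6 one. In wild-type mucosa the means were higher in C5 (5.96 CPM) and B6xPWD (6.07) than in B6 (4.46), with overlapping libraries. Over the 3 tissues E2f1 differed by -0.50 ± 0.14 (adjusted p = 0.0165) in C5 and by -0.37 ± 0.14 (adjusted p = 0.0430) in B6xPWD (log2 ± SE). Within adenoma it differed by -1.24 ± 0.24 (adjusted p = 6.71e-04) in C5 and -0.71 ± 0.24 (adjusted p = 0.0386) in B6xPWD. E2f1 was not called over the 3 C5 tissues without B6 wild-type mucosa library 1 (adjusted p = 0.0561), or without the 3 libraries that stood apart (0.0650). E2f1 was not called over the 3 B6xPWD tissues without B6 adenoma library 2 or 3, B6 Min mucosa library 1 or 3, B6 wild-type mucosa library 1, B6xPWD adenoma library 1 or 3, B6xPWD Min mucosa library 1 or 2 or any 1 of the 3 B6xPWD wild-type mucosa libraries (adjusted p = 0.0502 to 0.122), or without the 3 libraries that stood apart (0.231), nor with no low-count filter (0.0721) or in a fit of only the groups compared (0.0876). E2f1 was not called in B6xPWD adenoma without B6 adenoma library 2 or 3 or any 1 of the 3 B6xPWD adenoma libraries (adjusted p = 0.0650 to 0.182), or without the 3 libraries that stood apart (0.142), nor with no low-count filter (0.0646) or in a fit of only the groups compared (0.125).

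Birc5, which encodes survivin of the passenger complex, was lower in C5, B6xPWD and PWD. Birc5 stood at 35.3, 29.6 and 13.03 CPM in B6 wild-type mucosa, 21.5, 26.7 and 20.1 in C5F1, 18.1, 18.3 and 17.9 in C5, 20.4, 15.4 and 19.5 in B6xPWD and 10.7, 11.7 and 16.7 in PWD. Min mucosa held Birc5 at 21.0, 22.0 and 24.8 CPM from B6, 19.7, 18.8 and 12.9 from C5F1, 16.2, 22.8 and 15.6 from C5 and 16.1, 13.5 and 24.1 from B6xPWD. Adenoma libraries gave Birc5 26.9, 40.8 and 27.9 CPM from B6, 24.7, 24.4 and 20.2 from C5F1, 18.3, 17.99 and 17.7 from C5 and 14.6, 21.8 and 32.1 from B6xPWD. C5 adenoma libraries were the most alike and stood below all B6 adenoma libraries. The differences were -0.56 ± 0.15 (adjusted p = 0.0108) in C5, -0.46 ± 0.15 (adjusted p = 0.0189) in B6xPWD and -1.05 ± 0.27 (adjusted p = 0.00627) in PWD (log2 ± SE), and -0.81 ± 0.26 (adjusted p = 0.0288) in C5 adenoma. Birc5 was not called in B6xPWD without B6 adenoma library 2 or B6xPWD wild-type mucosa library 2 (adjusted p = 0.05005 to 0.0546), or without the 3 libraries that stood apart (0.138), nor in a fit of only the groups compared (0.0607). Birc5 was not called in PWD without B6 wild-type mucosa library 1 (adjusted p = 0.0708), nor in a fit of only the groups compared (0.0889). Birc5 was not called in C5 adenoma without B6 adenoma library 2 or any 1 of the 3 C5 adenoma libraries (adjusted p = 0.0654 to 0.172).

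Cyclin E2 and Mki67 went the other way, and were higher in C5. Ccne2 stood at 2.56, 1.92 and 5.10 CPM in B6 wild-type mucosa, 2.53, 2.33 and 4.96 in C5F1, 1.04, 4.83 and 3.23 in C5, 2.97, 4.43 and 5.49 in B6xPWD and 6.09, 4.18 and 4.55 in PWD. Min mucosa held Ccne2 at 2.01, 1.64 and 1.40 CPM from B6, 3.04, 2.95 and 6.28 from C5F1, 3.002, 3.42 and 6.30 from C5 and 3.80, 4.63 and 3.04 from B6xPWD. Adenoma libraries gave Ccne2 3.94, 2.09 and 1.71 CPM from B6, 2.90, 2.83 and 3.30 from C5F1, 3.96, 3.79 and 4.21 from C5 and 3.94, 6.18 and 3.42 from B6xPWD. The B6 Min mucosa libraries were below all other Min mucosa libraries, and the wild-type libraries overlapped, with means of 3.03 CPM in C5 and 3.19 in B6. Over the 3 tissues Ccne2 differed by 0.63 ± 0.22 (adjusted p = 0.0390) in C5 and by 0.76 ± 0.22 (adjusted p = 0.00739) in B6xPWD (log2 ± SE). Mki67, whose library values are given above, differed by 0.43 ± 0.14 (adjusted p = 0.0375) in C5. Ccne2 was not called in C5 without B6 adenoma library 2 or 3, B6 Min mucosa library 2 or 3, B6 wild-type mucosa library 1 or 2, any 1 of the 3 C5 adenoma libraries, C5 Min mucosa library 3 or C5 wild-type mucosa library 2 or 3 (adjusted p = 0.0529 to 0.135), or without the 3 libraries that stood apart (0.0771), nor with no low-count filter (0.0555) or in a fit of only the groups compared (0.0638). Mki67 was not called in C5 without any 1 of the 3 B6 adenoma libraries, B6 Min mucosa library 1 or 2, B6 wild-type mucosa library 1 or 2, C5 adenoma library 2 or 3, C5 Min mucosa library 2 or 3 or C5 wild-type mucosa library 1 or 3 (adjusted p = 0.0511 to 0.0936). Both genes lay close to the threshold.

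Cenpe and Rrm2 were also called against B6. In C5F1, Cenpe (a kinetochore kinesin) was higher by 0.45 ± 0.13 (adjusted p = 0.0241), and Rrm2 differed by -0.46 ± 0.13 (adjusted p = 0.0241) (log2 ± SE). Cenpe stood at 23.5, 17.6 and 19.8 CPM in B6 wild-type mucosa, 23.6, 29.7 and 32.6 in C5F1, 20.7, 19.1 and 18.1 in C5, 22.1, 23.5 and 17.8 in B6xPWD and 11.7, 11.7 and 14.0 in PWD. Min mucosa held Cenpe at 13.8, 16.8 and 30.2 CPM from B6, 36.4, 21.6 and 20.9 from C5F1, 18.4, 34.9 and 24.8 from C5 and 22.9, 20.3 and 17.1 from B6xPWD. Adenoma libraries gave Cenpe 21.4, 22.8 and 18.1 CPM from B6, 27.3, 29.6 and 34.7 from C5F1, 30.1, 29.0 and 25.1 from C5 and 24.1, 27.6 and 22.6 from B6xPWD. PWD held the lowest Cenpe levels of wild-type mucosa, and C5F1 adenoma libraries were above the B6 adenoma libraries. Cenpe was not called without B6 Min mucosa library 1 or 2, B6 wild-type mucosa library 2, C5F1 Min mucosa library 1 or C5F1 wild-type mucosa library 3 (adjusted p = 0.0551 to 0.0682), or without the 3 libraries that stood apart (0.0520), nor in a fit of only the groups compared (0.0520). Rrm2 was not called without B6 adenoma library 2, B6 Min mucosa library 1, C5F1 Min mucosa library 2 or C5F1 wild-type mucosa library 3 (adjusted p = 0.0530 to 0.0795). In PWD, Cenpe differed by -0.71 (adjusted p = 0.0387).

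Mcm5 and Mcm2 were lower in C5, by -0.36 ± 0.10 (adjusted p = 0.0141) and -0.33 (adjusted p = 0.0158) on the log2 scale. Mcm5 stood at 45.7, 52.7 and 34.0 CPM in B6 wild-type mucosa, 42.6, 45.4 and 33.8 in C5F1, 35.8, 38.3 and 45.9 in C5, 44.5, 38.5 and 40.8 in B6xPWD and 33.2, 32.1 and 36.4 in PWD. Min mucosa held Mcm5 at 42.2, 39.2 and 50.1 CPM from B6, 37.96, 27.9 and 31.0 from C5F1, 30.8, 41.2 and 36.4 from C5 and 32.8, 39.9 and 36.7 from B6xPWD. Adenoma libraries gave Mcm5 58.0, 74.0 and 72.5 CPM from B6, 65.7, 56.6 and 61.1 from C5F1, 40.7, 51.1 and 38.1 from C5 and 45.7, 68.2 and 70.5 from B6xPWD. The C5 adenoma libraries were below all other adenoma libraries of Mcm5 except B6xPWD adenoma library 1. Within C5 adenoma, Mcm5 gave -0.65 (adjusted p = 0.00941) and Mcm2 -0.50 (adjusted p = 0.0283). Over the 3 tissues Mcm2 was also lower in B6xPWD, -0.24 (adjusted p = 0.0488), though in wild-type mucosa its mean was 33.65 CPM in B6xPWD and 32.4 in B6.

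Top2a and Gmnn were lower in B6xPWD and PWD. Top2a stood at 143, 126 and 95.2 CPM in B6 wild-type mucosa, 104, 99.3 and 94.9 in C5F1, 97.4, 74.6 and 89.2 in C5, 79.4, 89.4 and 63.0 in B6xPWD and 78.9, 71.9 and 57.1 in PWD. Min mucosa held Top2a at 93.9, 89.2 and 119.9 CPM from B6, 156, 81.5 and 93.4 from C5F1, 95.1, 149 and 101 from C5 and 105, 75.2 and 70.8 from B6xPWD. Adenoma libraries gave Top2a 133, 179 and 118 CPM from B6, 175, 126 and 159.8 from C5F1, 119, 155 and 132 from C5 and 106, 127 and 97.4 from B6xPWD. PWD libraries were all below the B6 wild-type libraries. Top2a differed by -0.43 ± 0.13 (adjusted p = 0.00930) in B6xPWD and -0.81 ± 0.23 (adjusted p = 0.0105) in PWD (log2 ± SE). Top2a was not called in PWD without B6 wild-type mucosa library 1 (adjusted p = 0.0614), nor in a fit of only the groups compared (0.0555).

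Gmnn, the licensing inhibitor, had a narrower range. Gmnn stood at 12.5, 13.7 and 7.37 CPM in B6 wild-type mucosa, 8.02, 7.91 and 8.55 in C5F1, 9.33, 11.1 and 9.98 in C5, 11.9, 10.6 and 9.0 in B6xPWD and 8.37, 7.06 and 7.29 in PWD. Min mucosa held Gmnn at 11.6, 9.03 and 8.91 CPM from B6, 7.59, 10.3 and 7.63 from C5F1, 8.41, 8.79 and 9.20 from C5 and 6.75, 7.12 and 6.78 from B6xPWD. Adenoma libraries gave Gmnn 11.3, 11.6 and 10.2 CPM from B6, 10.2, 11.4 and 6.33 from C5F1, 11.0, 7.75 and 7.16 from C5 and 7.36, 10.2 and 7.89 from B6xPWD. The B6xPWD Min mucosa libraries were below all B6 Min mucosa libraries. Gmnn differed by -0.34 (adjusted p = 0.0244) in B6xPWD and -0.61 (adjusted p = 0.0413) in PWD. Ccnb1, whose library values are given above, differed by -1.70 ± 0.51 (adjusted p = 0.0171) in PWD wild-type mucosa (log2 ± SE). Ccnb1 was not called without B6 wild-type mucosa library 1 or PWD wild-type mucosa library 2 (adjusted p = 0.135 to 0.173), or without the 3 libraries that stood apart (0.125). PWD wild-type mucosa also held more enterocyte marker RNA, 28610 to 51540 CPM against 8789 to 23690 in B6, and 4 of 6 Paneth cell markers were lower there. Of 5 B cell markers tested 3 were also lower, but their sum was 115 CPM in B6 library 1, which stood apart, and 15.5 and 9.63 in the other 2, against 18.8, 22.8 and 11.8 in PWD. In B6xPWD adenoma 6 of 12 enterocyte markers were higher than in B6 adenoma. The 5 B cell markers tested were also called higher, with a sum of 298 CPM in library 1, which stood apart, while the other 2, at 3.86 and 4.999, did not exceed the 3.99 to 10.2 of B6 adenoma. The part of these shifts in the members' differences was not tested.

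Within C5 adenoma, 7 members were lower than in B6 adenoma and none was higher (all genes: 8.26% lower, 1128 of the 2425 called). They were E2f1, Pcna, Birc5, Aurkb, Kif20a, Mcm5 and Mcm2. Aurkb stood at 18.2, 12.3 and 9.63 CPM in B6 wild-type mucosa, 16.9, 20.1 and 10.9 in C5F1, 15.0, 12.9 and 15.3 in C5, 15.2, 14.1 and 17.1 in B6xPWD and 9.13, 14.7 and 18.8 in PWD. Min mucosa held Aurkb at 16.6, 12.9 and 19.2 CPM from B6, 9.87, 9.29 and 11.7 from C5F1, 11.4, 20.5 and 15.0 from C5 and 13.6, 18.9 and 15.0 from B6xPWD. Adenoma libraries gave Aurkb 21.7, 26.4 and 23.5 CPM from B6, 20.9, 15.9 and 15.0 from C5F1, 11.8, 17.7 and 13.5 from C5 and 19.4, 20.5 and 28.7 from B6xPWD. The B6 adenoma libraries of Aurkb were all above those of C5, and in both kinds of mucosa these backgrounds overlapped. Aurkb differed by -0.72 ± 0.24 (adjusted p = 0.0376) in C5 adenoma, and Kif20a by -0.70 ± 0.23 (adjusted p = 0.0371) (log2 ± SE).

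Kif20a stood at 18.1, 15.3 and 11.9 CPM in B6 wild-type mucosa, 15.2, 19.7 and 17.1 in C5F1, 12.9, 14.6 and 15.4 in C5, 18.5, 20.04 and 20.2 in B6xPWD and 18.01, 13.7 and 20.4 in PWD. Min mucosa held Kif20a at 9.92, 15.0 and 21.5 CPM from B6, 21.3, 13.3 and 12.7 from C5F1, 12.0, 22.8 and 14.4 from C5 and 16.6, 17.8 and 20.6 from B6xPWD. Adenoma libraries gave Kif20a 27.1, 34.4 and 28.1 CPM from B6, 24.4, 25.7 and 29.3 from C5F1, 18.1, 21.8 and 14.7 from C5 and 18.8, 21.4 and 32.1 from B6xPWD. Kif20a overlapped between C5 and B6 in both kinds of mucosa and not in adenoma. Aurkb was not called without B6 adenoma library 2 or 3 or C5 adenoma library 1 or 3 (adjusted p = 0.0676 to 0.151). Kif20a was not called without B6 adenoma library 2 or 3 or C5 adenoma library 1 or 3 (adjusted p = 0.0553 to 0.155). The number of members called in C5 adenoma was 2 without C5 adenoma library 3, 3 without B6 adenoma library 2, and 4 without B6 adenoma library 3 or C5 adenoma library 1. In B6xPWD adenoma 2 were lower, Pcna and E2f1 (6.97% of all genes), and 1 without B6 adenoma library 2, B6 adenoma library 3 or B6xPWD adenoma library 1. In C5F1 adenoma none was called by edgeR, 1 by DESeq2, and 3 had an unadjusted p under 0.05 (all genes called: 0.483%). Pcna and E2f1 had the smallest p there, the latter at -0.58 (adjusted p = 0.225).

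The counts over 3 tissues also moved with single libraries. In C5F1 the 4 calls became 2 without B6 adenoma library 2, B6 Min mucosa library 1 or B6 Min mucosa library 2, and 7 without B6 wild-type mucosa library 3. In C5 the 8 calls became 5 without B6 wild-type mucosa library 1. In B6xPWD the 8 calls became 5 without B6 adenoma library 2, B6 Min mucosa library 1, B6xPWD adenoma library 1 or B6xPWD wild-type mucosa library 2, and 4 without the 3 libraries that stood apart. In PWD the 7 calls became 2 without B6 wild-type mucosa library 1 and 4 without PWD wild-type mucosa library 2.

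Mcm7, Tyms and Cenpa lie on chromosome 5 (138164583 to 138172422, 30058202 to 30073617 and 30666777 to 30674830, mm10), which C5 carries from PWD/Ph. None of the 3 was called in any comparison of another background with B6. Mcm7 stood at 19.9, 20.3 and 14.2 CPM in B6 wild-type mucosa, 15.6, 31.4 and 24.4 in C5F1, 18.6, 18.2 and 29.5 in C5, 23.7, 15.8 and 26.8 in B6xPWD and 12.4, 21.8 and 28.5 in PWD. Min mucosa held Mcm7 at 26.8, 23.2 and 26.7 CPM from B6, 27.3, 14.7 and 18.8 from C5F1, 14.2, 22.3 and 22.2 from C5 and 23.6, 24.8 and 22.9 from B6xPWD. Adenoma libraries gave Mcm7 33.8, 50.7 and 38.2 CPM from B6, 33.7, 28.8 and 31.2 from C5F1, 23.2, 37.1 and 24.2 from C5 and 25.5, 33.0 and 50.5 from B6xPWD. Adenoma was above Min mucosa in each background. The C5F1 adenoma and the C5 Min mucosa libraries were below those of B6, and the other groups overlapped with B6. Mcm7 differed from B6 by -0.13 (adjusted p = 0.651) in C5F1, -0.21 (adjusted p = 0.390) in C5, -0.01 (adjusted p = 0.975) in B6xPWD and 0.17 (adjusted p = 0.745) in PWD on the log2 scale. In adenoma the differences were -0.38 (adjusted p = 0.529) in C5F1, -0.53 (adjusted p = 0.181) in C5 and -0.17 (adjusted p = 0.724) in B6xPWD.

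Tyms stood at 9.20, 9.43 and 10.2 CPM in B6 wild-type mucosa, 10.6, 13.1 and 8.66 in C5F1, 5.18, 9.49 and 7.78 in C5, 10.9, 11.2 and 9.0 in B6xPWD and 8.62, 8.94 and 8.503 in PWD. Min mucosa held Tyms at 9.54, 9.71 and 11.7 CPM from B6, 6.83, 7.76 and 9.11 from C5F1, 9.41, 10.6 and 10.3 from C5 and 7.73, 9.62 and 7.95 from B6xPWD. Adenoma libraries gave Tyms 12.9, 11.6 and 13.9 CPM from B6, 15.7, 14.3 and 11.4 from C5F1, 10.2, 10.6 and 7.79 from C5 and 7.19, 10.4 and 10.5 from B6xPWD. C5F1 was the background in which adenoma and Min mucosa libraries of Tyms did not overlap. Its log2 differences from B6 were -0.02 in C5F1, -0.23 in C5, -0.20 in B6xPWD and -0.13 in PWD, with adjusted p of 0.127 or more. Within adenoma they were 0.10, -0.41 and -0.44 in C5F1, C5 and B6xPWD, with adjusted p of 0.0992 or more.

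Cenpa stood at 19.0, 17.6 and 8.499 CPM in B6 wild-type mucosa, 19.9, 19.4 and 13.5 in C5F1, 16.1, 8.04 and 9.54 in C5, 16.8, 12.9 and 10.3 in B6xPWD and 11.7, 12.2 and 10.3 in PWD. Min mucosa held Cenpa at 8.04, 9.71 and 7.51 CPM from B6, 23.5, 14.0 and 8.49 from C5F1, 17.4, 13.3 and 9.08 from C5 and 8.22, 11.6 and 10.5 from B6xPWD. Adenoma libraries gave Cenpa 15.8, 15.8 and 18.3 CPM from B6, 17.7, 20.1 and 16.4 from C5F1, 18.3, 14.8 and 9.90 from C5 and 9.93, 11.4 and 23.2 from B6xPWD. For Cenpa, B6 was the background in which adenoma was above all Min mucosa libraries. The log2 differences from B6 were 0.32 in C5F1, -0.04 in C5, -0.06 in B6xPWD and -0.45 in PWD, with adjusted p of 0.251 or more, and in adenoma 0.13, -0.19 and -0.18 (adjusted p of 0.717 or more). Mcm7 has a processed pseudogene of 97.7% identity over 2157 bases, and Tyms shares stretches with other transcripts and a pseudogene, so small differences in these genes are uncertain.

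In organoids the AZA libraries were compared with their untreated controls, the series' test of this drug. Averaged over B6 and C5, 33 of the 38 genes fell and none rose, and all 38 estimates were below 0. Over all 13395 genes tested, 13.5% fell (1813 of the 3818 called). The members' median log2 change was -1.32, against 0.04 for all genes. Mitotic roles had the lowest medians: -1.62 for checkpoint and centromere genes (5 of 5 fell), -1.47 for spindle and chromosome structure (6 of 6) and -1.36 for the passenger complex (3 of 3), with mitotic entry at -1.20 (5 of 6). The MCM genes followed at -1.09 (6 of 6), S phase control at -0.96 (3 of 5), nucleotide supply at -0.94 (3 of 3) and licensing at -0.73 (2 of 4).

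**Figure D5:**
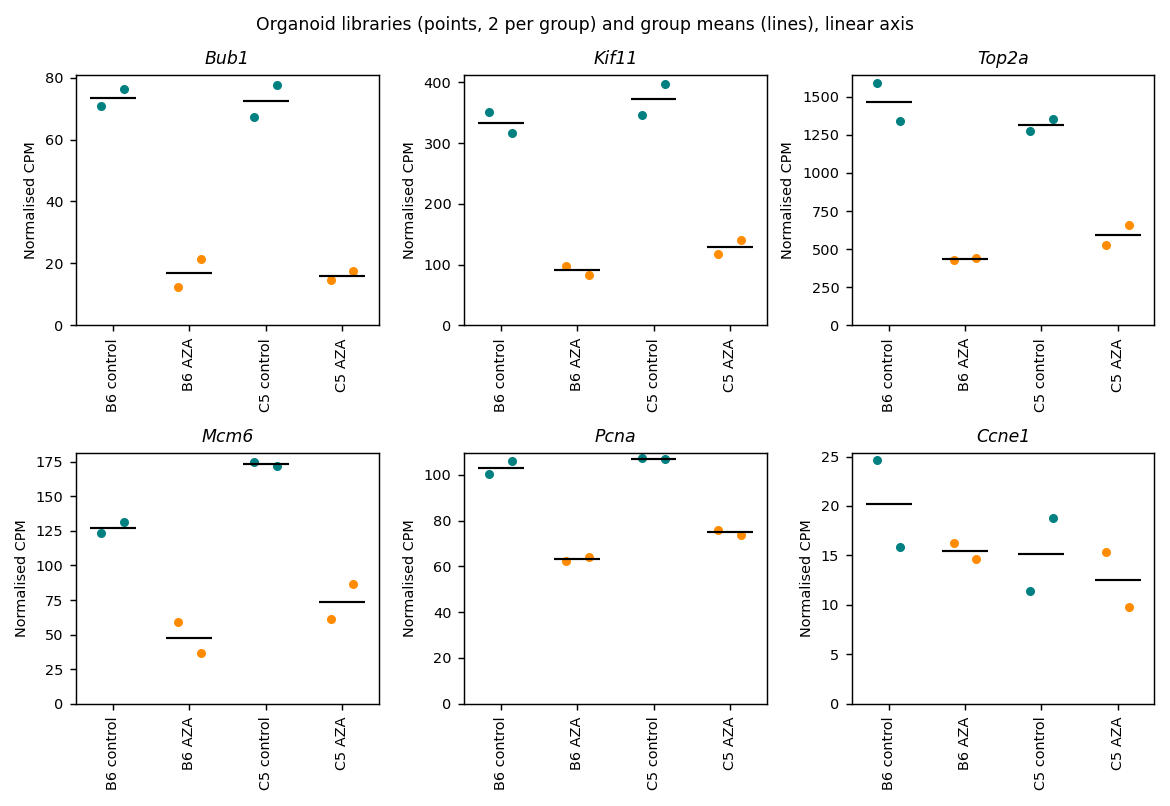
CPM of 6 members in each of the 8 organoid libraries, with 1 point per library and a bar at each group mean. The AZA points of Bub1, Kif11, Top2a, Mcm6 and Pcna lie below the control points in both backgrounds, and those of Ccne1 overlap with them.

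Bub1, a kinase of the spindle checkpoint, had the largest change. It stood at 70.7 and 76.3 CPM in the B6 control and 12.5 and 21.5 in the B6 AZA organoids, and 67.4 and 77.7 in the C5 control and 14.6 and 17.5 in the C5 AZA organoids. Both backgrounds fell by a similar amount with no overlap, and the mean log2 change was -2.13 ± 0.20 (SE; edgeR adjusted p = 2.43e-06). Kif11, the kinesin that separates the spindle poles, stood at 351 and 316 CPM in the B6 control and 98.1 and 83.6 in the B6 AZA organoids, and 347 and 397 in the C5 control and 118 and 140.5 in the C5 AZA organoids. Its replicates were close to each other, and it had the smallest p of the members, with a log2 change of -1.70 ± 0.12 (SE; edgeR adjusted p = 1.69e-07).

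Cenpa was at 69.1 and 62.4 CPM in the B6 control and 19.8 and 24.1 in the B6 AZA organoids, and 74.3 and 69.5 in the C5 control and 18.5 and 16.6 in the C5 AZA organoids, and changed by -1.79 ± 0.18 (SE; edgeR adjusted p = 3.17e-06). Aurkb, the kinase of the passenger complex, was at 60.9 and 58.5 CPM in the B6 control and 7.01 and 25.3 in the B6 AZA organoids, and 50.1 and 63.6 in the C5 control and 14.2 and 21.0 in the C5 AZA organoids, and changed by -1.78 ± 0.30 (SE; edgeR adjusted p = 4.29e-04). Its AZA libraries were the more variable, most of all in B6. Nusap1, a microtubule-bundling protein of the spindle, was at 139 and 169.5 CPM in the B6 control and 41.7 and 47.05 in the B6 AZA organoids, and 144 and 176 in the C5 control and 56.7 and 46.7 in the C5 AZA organoids, and changed by -1.71 ± 0.15 (SE; edgeR adjusted p = 7.74e-07).

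Per kilobase, Top2a and Mki67 were the most abundant of these genes in control organoids. Top2a was at 1588 and 1344 CPM in the B6 control and 428 and 444 in the B6 AZA organoids, and 1277 and 1357 in the C5 control and 527 and 660.1 in the C5 AZA organoids. Mki67 was at 1513 and 1240.0 CPM in the B6 control and 442 and 491 in the B6 AZA organoids, and 965 and 1391 in the C5 control and 589 and 684 in the C5 AZA organoids. Neither gene's AZA libraries overlapped its controls. Top2a fell by 1.45 and Mki67 by 1.23 on the log2 scale (SE 0.12 and 0.13, edgeR adjusted p = 3.76e-07 and 7.90e-06).

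Ccnb1 was at 60.2 and 57.0 CPM in the B6 control and 15.7 and 26.7 in the B6 AZA organoids, and 53.1 and 39.8 in the C5 control and 12.4 and 21.9 in the C5 AZA organoids. It fell by 1.44, its partner Cdk1 by 1.36, Ccna2 by 1.40, and Ccnb2 by 1.03. Bub1b, Kif20a and Chek1 fell by 1.62, 1.49 and 1.62, and Aurka, Tpx2, Cdca8 and Cenpe by 1.35, 1.33, 1.36 and 1.32. Cdc20, Plk1 and Birc5 fell by 1.12, 1.04 and 1.02. Foxm1, at the head of this mitotic programme, did not pass the test, at -0.84 (adjusted p = 0.0573).

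Among the replication genes, Mcm7 fell by 1.39, Mcm6 by 1.32, Mcm3 by 1.13, Mcm4 by 1.05 and Mcm5 by 0.86. Mcm7 was at 78.7 and 66.0 CPM in the B6 control and 22.9 and 19.6 in the B6 AZA organoids, and 82.0 and 82.7 in the C5 control and 32.2 and 49.0 in the C5 AZA organoids. Mcm6 was at 124 and 131 CPM in the B6 control and 59.0 and 36.5 in the B6 AZA organoids, and 175 and 172 in the C5 control and 61.0 and 86.5 in the C5 AZA organoids, and the C5 controls were above the B6 controls. Mcm2 was at 71.9 and 67.9 CPM in the B6 control and 42.9 and 50.8 in the B6 AZA organoids, and 66.7 and 122 in the C5 control and 37.3 and 62.0 in the C5 AZA organoids. The 2 C5 controls of Mcm2 were far apart, and its change was the smallest of the 6, -0.75 ± 0.21 (SE; edgeR adjusted p = 0.0138).

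Rrm2 was at 53.9 and 64.6 CPM in the B6 control and 30.6 and 26.9 in the B6 AZA organoids, and 58.7 and 48.9 in the C5 control and 28.8 and 31.0 in the C5 AZA organoids, and fell by 0.94, and Rrm1 fell by 1.36. Tyms was at 46.2 and 36.3 CPM in the B6 control and 35.0 and 22.1 in the B6 AZA organoids, and 36.3 and 45.0 in the C5 control and 14.0 and 26.4 in the C5 AZA organoids, with control and AZA libraries of B6 close together, and fell by 0.77 (adjusted p = 0.0274). Pcna was at 100.4 and 106 CPM in the B6 control and 62.2 and 63.9 in the B6 AZA organoids, and 107 and 107 in the C5 control and 75.9 and 73.8 in the C5 AZA organoids, and had the smallest change among the genes that fell, -0.61 ± 0.13 (SE; edgeR adjusted p = 0.00259). Gmnn fell by 1.35, and Ccne2 by 0.96.

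5 members did not pass the test under AZA: Foxm1, already given, and 4 genes of licensing and S phase entry. Cyclin E1 was at 24.6 and 15.8 CPM in the B6 control and 16.2 and 14.7 in the B6 AZA organoids, and 11.4 and 18.8 in the C5 control and 15.3 and 9.79 in the C5 AZA organoids. Those libraries overlapped, and the log2 change was -0.32 ± 0.29 (SE; edgeR adjusted p = 0.448). E2f1 was at 8.21 and 8.13 CPM in the B6 control and 2.73 and 4.65 in the B6 AZA organoids, and 2.35 and 5.41 in the C5 control and 1.30 and 5.69 in the C5 AZA organoids, and the change was -0.63 ± 0.58 (SE; edgeR adjusted p = 0.452). The licensing factors Cdt1 and Cdc6 gave -0.60 (adjusted p = 0.193) and -0.84 (adjusted p = 0.0634).

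Taken separately, 29 members fell in B6 organoids (all genes: 6.91%) and 27 in C5 organoids (6.49%), and none rose. Of all genes called, 925 of 2156 fell in B6 and 869 of 1949 in C5 organoids. In B6 the largest changes were those of Bub1 (-2.09 ± 0.29, adjusted p = 1.64e-04), Bub1b (-2.04 ± 0.18, adjusted p = 3.08e-06), Kif11 (-1.87 ± 0.18, adjusted p = 5.59e-06), Aurkb (-1.86 ± 0.43, adjusted p = 0.00742) and Tpx2 (-1.83 ± 0.20, adjusted p = 2.35e-05). In C5 they were Bub1 (-2.16 ± 0.29, adjusted p = 1.77e-04), Cenpa (-2.01 ± 0.25, adjusted p = 9.97e-05), Chek1 (-1.98 ± 0.58, adjusted p = 0.0328), Aurkb (-1.69 ± 0.43, adjusted p = 0.0151) and Nusap1 (-1.62 ± 0.21, adjusted p = 1.08e-04). Chek1 lost its call without C5 organoid control library 4 (adjusted p = 0.05001). A fit of the 2 C5 groups alone, with 2 libraries each, called 15. The difference in the AZA change between C5 and B6 was not called for any member (6 at unadjusted p under 0.05; 0% of all genes called). It was 1.004 (adjusted p = 0.999) for Tpx2 and 0.84 (adjusted p = 0.999) for Bub1b, which had the smallest p. DESeq2 called none in that test either.

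Markers of differentiated cells rose with AZA. All 12 enterocyte markers rose, and their sum was 25730 to 37770 CPM in AZA and 5012 to 10700 in control organoids. All 6 Paneth cell markers rose (3699 to 7027 against 917 to 1420 CPM), as did all 6 goblet cell markers (3341 to 5002 against 2550 to 3083) and 5 of 6 enteroendocrine markers (3662 to 5337 against 1432 to 2082). Of 8 crypt stem cell markers 1 rose and 2 fell (1702 to 3147 against 2163 to 3855). No marker of these lists was at 0 across AZA or control organoids, and their part in the fall of the members was not tested. Cdkn1a, the p21 gene, was at 72.5 and 85.3 CPM in the B6 control and 174 and 187 in the B6 AZA organoids, and 41.9 and 18.5 in the C5 control and 237 and 189 in the C5 AZA organoids. It was higher in every AZA library, and rose by 2.01 ± 0.20 (SE; edgeR adjusted p = 3.80e-06) on the log2 scale.

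The other pathway genes largely fell with AZA, 83 of 123 tested, while 5 rose. All 11 kinetochore genes fell, led by Casc5 (-1.73), Sgol1 (-1.58) and Mad2l1 (-1.47). Of 16 spindle, condensin and cytokinesis genes 15 fell, led by Kif15 (-1.93) and Kif4 (-1.83), and of 14 mitotic entry and exit genes 10 fell, led by Cks2 (-2.85). All 7 chromatin copying genes fell, led by the histone chaperone Asf1b (-1.77), and of 6 nucleotide supply genes 4 fell, led by thymidine kinase Tk1 (-1.82). Origin and helicase loading genes fell in 5 of 14 cases, led by Cdc7 (-1.40) and its activator Dbf4 (-1.31). The D cyclins Ccnd2 and Ccnd1 rose by 1.35 and 1.01, while Myc and Cdk2 fell by 1.08 and 1.07. Cdkn2b rose by 1.08 and Cdkn1b (p27) fell by 1.04.

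Without drug, C5 and B6 control organoids did not differ in any member (0 at unadjusted p under 0.05, and 0.209% of all genes called). The median log2 difference was 0.01, and the smallest p values were those of Mcm6 (0.44 ± 0.23, adjusted p = 0.876) and Mcm3 (0.43 ± 0.26, adjusted p = 0.905). The chromosome 5 genes Mcm7, Tyms and Cenpa gave 0.19 (adjusted p = 0.978), -0.02 (adjusted p = 1) and 0.13 (adjusted p = 0.984). DESeq2 called none either.

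Control organoids were last set against B6 and C5 Min mucosa, the mucosa of mice with the same Apc allele, in a fit of both kinds of library. The organoids hold few muscle transcripts (marker sum 0 to 5.88 CPM) and few immune transcripts, and their origin is not given, so this compares a culture with a whole tissue. Of the epithelial types, enteroendocrine markers summed to 1432 to 2082 CPM in control organoids and 90.9 to 130.2 in B6 and C5 Min mucosa, and crypt stem cell markers to 2163 to 3855 against 549 to 915, each kind of library on its own scale. On their own scales organoid levels are higher, and mucosa levels lower, than on the scale of this fit. The size of the gaps therefore cannot be read from these sums. Paneth cell markers summed to 917 to 1420 against 3329 to 7993, and all 6 were lower. Of 12 enterocyte markers 8 were lower and 1 higher, and of 6 goblet cell markers 5 were lower. The part of these shifts in the members' differences was not tested. 32 members were higher and 2 lower in organoids, where 32.8% of all 15202 genes tested were higher and 41% lower. The median log2 difference was 1.42 for members and -0.14 for all genes. RLE scaling moved these to 1.29 and -0.24, and DESeq2 to 1.30 and -0.31.

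On the scale of that fit, Ccnb1 was at 34.4 and 33.6 CPM in B6 and 31.3 and 23.1 in C5 control organoids, and 1.86, 2.94 and 3.88 in B6 and 3.35, 6.23 and 3.78 in C5 Min mucosa. All 4 organoid libraries were far above the 6 mucosa libraries, and the log2 difference was 2.98 ± 0.31 (SE; edgeR adjusted p = 8.77e-11). Kif11, with the smallest p, was at 200.3 and 186 CPM in B6 and 204 and 231 in C5 control organoids, and 27.2, 31.7 and 40.7 in B6 and 33.5, 52.1 and 36.0 in C5 Min mucosa, a log2 difference of 2.47 ± 0.14 (SE; edgeR adjusted p = 4.92e-18). Cenpe, Top2a and Ccne2 differed by 2.81 ± 0.17 (adjusted p = 7.17e-17), 2.74 ± 0.17 (adjusted p = 6.92e-17) and 2.67 ± 0.26 (adjusted p = 1.72e-11) (log2 ± SE). Checkpoint and centromere genes had a median difference of 1.99 (4 of 5 higher), spindle and chromosome structure 1.92 (6 of 6), nucleotide supply 1.75 (3 of 3) and the MCM genes 0.83 (6 of 6).

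Within the MCM ring the estimates included 2.41 for Mcm3 and 0.48 for Mcm2, and the gap between the genes was not tested. Mcm2 was at 41.0 and 40.0 CPM in B6 and 39.3 and 70.8 in C5 control organoids, and 42.4, 36.6 and 35.6 in B6 and 29.7, 31.3 and 29.1 in C5 Min mucosa. Mki67, which did not pass the test in adenoma, was higher by 1.75 ± 0.18 (SE; edgeR adjusted p = 1.05e-10), and Nusap1, Gmnn and Ccna2 by 2.08, 2.27 and 1.41. Cdc20, Pcna, Ccnb2 and Cdt1 did not pass the test, at -0.001 (adjusted p = 1), 0.40 (adjusted p = 0.0576), 0.39 (adjusted p = 0.0977) and 0.34 (adjusted p = 0.213).

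The transcription factors E2f1 and Foxm1 were the 2 members lower in organoids. E2f1 was at 4.69 and 4.79 CPM in B6 and 1.39 and 3.14 in C5 control organoids, and 8.17, 5.72 and 6.39 in B6 and 4.68, 4.88 and 4.34 in C5 Min mucosa. Those ranges overlap, and the log2 difference was -0.70 ± 0.25 (SE; edgeR adjusted p = 0.0102). Foxm1 was at 5.75 and 8.64 CPM in B6 and 9.11 and 12.8 in C5 control organoids, and 10.3, 7.58 and 18.02 in B6 and 13.4, 18.4 and 13.4 in C5 Min mucosa, and differed by -0.58 ± 0.20 (SE; edgeR adjusted p = 0.0117). E2f1 lost its call without C5 organoid control library 3 (adjusted p = 0.0795). Foxm1 lost its call without B6 Min mucosa library 3, B6 organoid control library 1 or C5 organoid control library 3 (adjusted p = 0.0615 to 0.0824), and in a fit of only the groups compared (0.0512).

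Of 124 other pathway genes, 90 were higher and 17 lower in organoids. Smc4 and Smc2, subunits of condensin, were higher by 4.06 and 3.64, the kinetochore genes Nuf2 and Ndc80 by 3.85 and 3.42, and the clamp loader subunit Rfc4 by 3.30. The CDK inhibitors Cdkn2b and Cdkn1a were lower, at -2.68 and -2.40, as were Ccnd3 at -1.96 and Fzr1, which keeps the anaphase-promoting complex active in G1, at -2.15.

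Set side by side, the values of single members differed between the 3 comparisons. Mcm2 changed by 0.82 in adenoma, -0.75 with AZA and 0.48 in organoids against Min mucosa. Kif11 changed by 0.15, -1.70 and 2.47, Ccnb1 by 0.32, -1.44 and 2.98, and Ccne1 by 0.94, -0.32 and 1.04. Adenoma and organoids were each compared with Min mucosa, and the organoid comparisons share the control organoids. In adenoma the 5 largest changes were those of Mcm3, Ccne1, Rrm2, Mcm2 and Mcm4, and with AZA those of Bub1, Cenpa, Aurkb, Nusap1 and Kif11.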

How the data were processed

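RNA of 39 tissue and 8 organoid libraries was measured as read counts per gene. Per the labels' protocols, total RNA was depleted of ribosomal RNA and sequenced as single-end reads of short inserts on an Illumina Genome Analyser IIx. Per the submitters' processing notes, BWA and HTSeq were used with the mm10 build. Versions, annotation and strand setting are not given in the sources used here. The mm10 build is of C57BL/6, so reads of PWD/Ph origin can map less well. The deposited whole-number counts were used as they stand. The 5 summary rows that name no gene were left out of totals; they held 40.7% to 53.9% of a tissue library and 46.4% to 63.5% of an organoid library.

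Counts were tested with edgeR 4.0.16 (R 4.3.3, limma 3.58.1) by its quasi-likelihood F test, with TMM scaling, filterByExpr by group (minimum count 10, minimum total 15) and prior count 2. One fit held all tissue libraries (13657 genes), one all organoid libraries (13395) and one all 47 (15202). A gene was called at an adjusted p under 0.05 (Benjamini-Hochberg over all genes of the fit). SE is the absolute log2 change divided by the root of F. CPM values are scaled within their fit. 22 comparisons were made. The scripts were tested on simulated counts.

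By a rule written with the design, full statistics went to the up to 5 called members with the largest change in each direction of a comparison, or, with none called, to the 2 with the smallest p. Members on chromosome 5 were named in each comparison with B6. Library values went to Mki67, Mcm2, Ccnb1, Rrm2, Cdkn1a (not a member), the chromosome 5 members and members called between backgrounds. Of other pathway genes, up to 4 called per list were named. Members, roles and lists were chosen with earlier results of these data known. Replicate numbers are shared between groups. In all 12 pairs of adenoma and Min mucosa libraries with the same number and background, the numbers being those of the titles, deviations from the group means went together (r = 0.107 to 0.455 across genes). The replicate block was therefore fitted as an alternative. With 2 libraries per organoid group, both pairs of a background must give the same r, which was -0.000293 in B6 and -0.0117 in C5. Over 43 pairs of libraries within groups, counts differed by more than sampling noise (chi-square per degree of freedom of 8.06 or more). Alternatives were RLE scaling, DESeq2 1.42.0, no filter, fits of only the groups compared, totals without Rn45s, leaving out each library, and leaving out the 3 that stood apart, the last chosen after seeing the data. Positions are from GENCODE for GRCm38, and promoters from RefSeq.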

Additional observations from a re-analysis of the deposited data

How the results depend on the processing

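The number of members called was recomputed under each alternative. With the replicate block it was 25 in B6 adenoma (14 without it) and 22 in C5F1 adenoma (13), with shares of all genes not given. Elsewhere the replicate block moved no count by over 1.5 times. With only the groups compared, it was 3 in B6xPWD adenoma against Min mucosa (9), 2 in PWD against B6 (7), 1 in C5F1 against B6 adenoma (0), 1 in B6xPWD against B6 adenoma (2) and 15 in C5 AZA organoids (27). DESeq2 called 1 in C5F1 against B6 adenoma. Without the low-count filter 1 was called in B6xPWD against B6 adenoma. Without the 3 libraries that stood apart, the count was 4 in B6xPWD against B6 over 3 tissues (8), and 1 in adenoma both of C5F1 and of B6xPWD against B6. The cause was not tested.

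Leaving out 1 library at a time gave 8 to 16 calls in B6 adenoma, 7 to 15 in C5F1, 0 to 1 in C5 and 5 to 12 in B6xPWD. Against B6 it gave 2 to 7 in C5F1, 5 to 8 in C5, 5 to 11 in B6xPWD and 2 to 10 in PWD, and in adenoma 2 to 8 in C5 and 1 to 2 in B6xPWD. The mean adenoma count stayed at 24 to 32, and AZA at 31 to 34. Of 746 values of named members under other tools, filters and sets of libraries, 720 kept their side of the threshold and, where not called, stayed within 1 SE, 22 lost the call, 3 gained one, 1 uncalled value moved by more than 1 SE and no called value changed direction. Of 1266 leave-one-out values 1165 stayed in this sense, 97 lost the call and 4 uncalled values moved by more than 1 SE. The uncalled values that moved were those of Mcm7, Cenpa and Tyms. Depth limits the 3 members with the lowest medians over the tissue libraries, Ccnb1, Ccne2 and Chek1, whose highest libraries held 6.33, 6.30 and 8.11 CPM, and each organoid group has 2 libraries.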

Other observations

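Ribosome biogenesis genes, a list of 20, were tested in the same fits. In adenoma 19 rose and none fell (median log2 change 0.65). With AZA 15 fell and 1 rose (-0.77), and in control organoids against Min mucosa 18 were higher and 1 lower (1.78).

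Over the 39 tissue libraries, with each group's mean subtracted, the non-member genes whose log2 CPM was most like the members' mean were Cep55 (Pearson r = 0.902), which acts in the last step of cytokinesis, Hist1h1b (0.862), a linker histone made in S phase, and Racgap1 (0.813), of the central spindle. Ckap4 (0.765), Prc1 (0.762), Stil (0.760), Ube2c (0.759), Melk (0.756), Frrs1 (0.746) and Ect2 (0.744) followed. These points share library depth and tissue composition, and the values are a description. Among the members, Kif20a was most like the mean of the others (0.857) and Ccne2 least (-0.342), with a median of 0.472. The median was 0.562 over the list of spindle, condensin and cytokinesis genes, 0.467 over chromatin copying genes, -0.324 over enterocyte markers and -0.436 over enteroendocrine markers, against -0.016 for all genes. Without B6 wild-type mucosa replicate 3, 3 of the 10 genes stayed among the first 10. Without B6xPWD adenoma replicate 1, C5F1 Min mucosa replicate 1 or B6 wild-type mucosa replicate 1, each left out in turn, 6 stayed; these 4 libraries were chosen after seeing the data. Over these 4 settings r was 0.886 to 0.911 for Cep55.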
